A study of Mus musculus with 17 samples.

Results

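The clustered protocadherins are cell-adhesion proteins encoded by 3 neighbouring gene arrays, called alpha, beta and gamma. Genes were taken as members when their symbol starts with Pcdha, Pcdhb or Pcdhg and the annotation gives them as protein coding, which no measured value entered. This gave 57 of 41015 genes with a deposited row: 14 alpha, 22 beta and 21 gamma genes. Of 58 symbols that start this way, 1 was left out, Pcdhgb8, because it is annotated as a polymorphic pseudogene. All lie on the plus strand of mouse chromosome 18 in mm10, the alpha array from 36930184 to 37187661, the beta array from 37264938 to 37524479 and the gamma array from 37661793 to 37841873.

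Each alpha and gamma gene has its own large variable exon, which holds the extracellular part of the protein and is spliced to constant exons shared by the whole array. The beta genes have no such constant exons. In most mouse neurons a few alternate isoforms are switched on per cell through promoter choice, which depends on CTCF, cohesin and DNA methylation, while the C-type isoforms at the 3′ end of the alpha and gamma arrays are expressed more broadly. The proteins recognise their own kind on facing membranes, and they are known for dendrite self-avoidance, axon tiling, synapse formation and survival of interneurons. In the counts here, 12 alpha genes are alternate isoforms, 12 gamma genes belong to the A class, 6 to the B class, and 5 genes are C-type (Pcdhac1, Pcdhac2, Pcdhgc3, Pcdhgc4 and Pcdhgc5).

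The study compared brain RNA of mice that overexpress HAR1A, a human long noncoding RNA gene, with that of normal mice, both on the C57BL/6 strain background. There were 6 transgene and 11 control libraries, named here by group and a number in accession order. All transgene libraries and controls 7, 8 and 11 were run on lane 4, 6 controls on lane 8, 1 on lane 2 and 1 on lane 6 of another flow cell. Brain part, age, sex, the promoter and integration of the transgene, and whether libraries came from separate animals do not appear in the labels, so p-values measure the spread between libraries, which may be technical. No value of HAR1A itself is used here, and nothing checks the transgene label from its own RNA.

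Assigned counts ranged from 17067407 to 22642441 per library, of which 15390 to 24615 fell on clustered protocadherins (0.0680% to 0.112%). Neuronal content was described with 11 pan-neuronal genes, whose summed level was 5248 to 8872 CPM across all libraries. CPM are counts relative to the library's assigned total, scaled by TMM, edgeR's correction for RNA composition. Pan-neuronal genes do not tell regions of the nervous system apart, so brain origin was not checked by them. The groups differed in genes that mark brain regions and cell types. The summed level of 15 Hox genes, markers of the hindbrain and spinal cord, was 0.0464 to 0.634 CPM in transgene libraries against 16.6 to 367 CPM in controls, and all 15 fell. The 10 cerebellar granule cell genes all fell (78.3 to 505 against 137 to 2987 CPM), as did 9 of 10 Purkinje cell genes. Of 10 telencephalic neuron genes 9 rose, with sums of 716 to 1037 against 70.9 to 574 CPM, and all 10 striatal genes rose, with sums of 1112 to 3126 against 424 to 674 CPM. Some genes of non-neuronal cells differed as well, beside 47.4% of all features called in either direction over all libraries. Of 10 astrocyte genes 1 rose and 5 fell (4889 to 5832 against 4295 to 5341 CPM), of 12 oligodendrocyte genes 2 rose and 6 fell (1638 to 3324 against 1699 to 6845 CPM), and of 7 tested microglial genes 5 rose and 0 fell (487 to 625.5 against 314 to 704 CPM). Of 7 tested endothelial genes 3 fell (196 to 305 against 255 to 381 CPM), and of 7 tested choroid plexus genes 1 fell (71.8 to 2090 against 130 to 4439 CPM). Control 7 stood apart from the other controls with the lowest granule cell sum (137 CPM, against 1011 to 2987 CPM in the others), the lowest telencephalic sum and the highest oligodendrocyte sum. The part of regional and cell type makeup in the results on protocadherins was not tested. In RNA of whole tissue, fewer cells of a type and less RNA per cell cannot be told apart.

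Pcdhgc5 was the clustered protocadherin that differed most between the groups. It is the last C-type isoform of the gamma array (37819513 to 37841873), its level in mouse brain rises after birth, and its protein has been found at inhibitory synapses. It had 173, 215, 195, 194, 182 and 283 CPM in transgene 1 to 6. The 11 controls lay between 17.3 and 88.1 CPM with a median of 26.7 CPM, the highest being control 3 and the lowest control 7. The groups did not overlap: the lowest transgene library, at 173 CPM, lay above the highest control, at 88.1 CPM. The log2 fold change was 2.52 ± 0.30 (SE; edgeR quasi-likelihood test, adjusted p = 2.24e-06; 207.0 ± 39.8 CPM, SD, n = 6, against 36.2 ± 21.8 CPM, n = 11). Within lane 4 it was 2.60 ± 0.29 (adjusted p = 0.000179), with controls 7, 8 and 11 at 17.3, 42.4 and 42.1 CPM. Over 26 other settings the log2 fold change ranged from 2.40 to 2.74.

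The other gamma C-type isoforms were lower in the transgene libraries when all libraries were compared. Pcdhgc4, which in mice is the isoform most needed for survival of interneurons, had 29.4 to 42.7 CPM (median 35.1) in transgene and 39.2 to 48.6 CPM (median 44.1) in controls. The ranges overlapped through transgene 1, the highest of its group. Its log2 fold change was -0.35 ± 0.08 (edgeR adjusted p = 0.00149). Pcdhgc3, which promotes dendrite branching in mouse cortical neurons and binds Axin1, had 48.5 to 62.1 CPM (median 59.5) against 47.5 to 113 CPM (median 93.5). The low end of the controls was control 7 at 47.5 CPM and control 11 at 61.7 CPM, and every other control was above all transgene libraries. Its log2 fold change was -0.62 ± 0.15 (edgeR adjusted p = 0.00241).

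Neither fall was called within lane 4, where Pcdhgc3 had a log2 fold change of -0.35 ± 0.21 (edgeR adjusted p = 0.238) and Pcdhgc4 of -0.30 ± 0.13 (adjusted p = 0.107). Without control 7 the lane 4 value of Pcdhgc3 was -0.57 (adjusted p = 0.0460), and without control 8 it was 0.04. With a term for lane and flow cell over all libraries, Pcdhgc3 had -0.34 (adjusted p = 0.189) and Pcdhgc4 -0.28 (adjusted p = 0.0586). Control 7 also had the lowest granule cell sum of the controls, 137 CPM, inside the range of the transgene libraries, and its Pcdhgc5 level of 17.3 CPM was the lowest of all libraries.

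The C-type isoforms of the alpha array were not called. Pcdhac2, which mouse serotonergic axons need to tile their targets, was the most abundant alpha gene with 74.8 to 96.6 CPM in transgene libraries against 68.0 to 87.2 CPM in controls. The ranges overlapped over most of their length, and the log2 fold change was 0.14 ± 0.07 (edgeR adjusted p = 0.0983). It passed the threshold without transgene 4 (0.21, adjusted p = 0.0166) and without transgene 5 (0.21, adjusted p = 0.0193). Pcdhac1 had 4.77 to 7.82 CPM against 6.17 to 7.74 CPM, with a log2 fold change of -0.14 ± 0.11 (adjusted p = 0.307). Serotonergic neurons are the cells in which Pcdhac2 is best studied. Their marker genes summed to 104 to 130 CPM in transgene libraries and 77.02 to 272 CPM in controls. Of 9 tested, 2 were higher and 4 lower, beside 23% and 24.4% of all features.

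**Figure D1:**
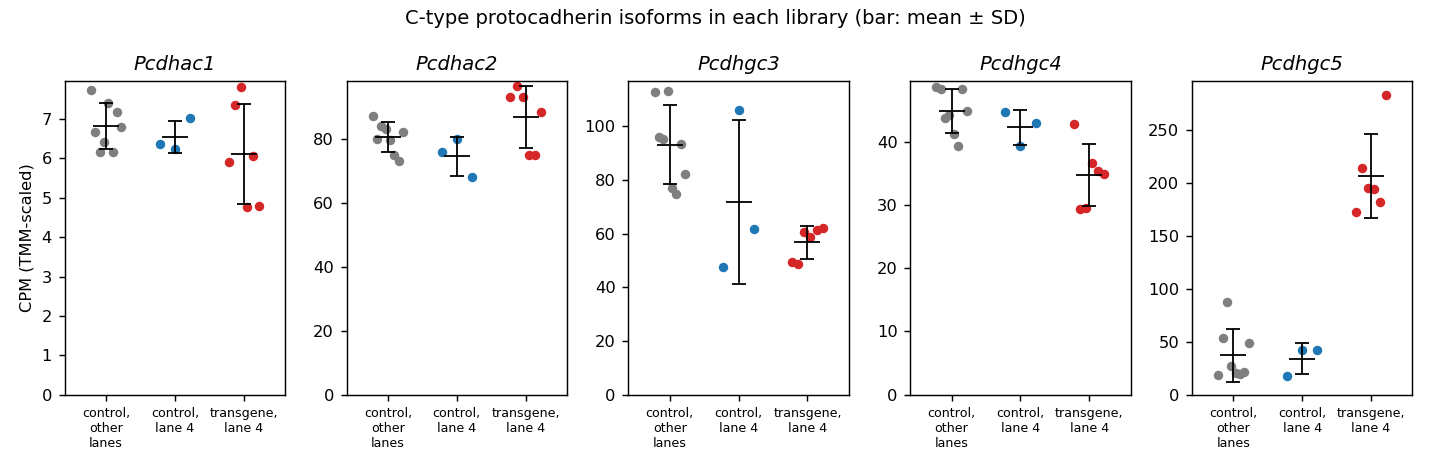
Level of the 5 C-type isoforms in each library, in TMM-scaled CPM on axes that start at 0. Points are libraries, split into controls on other lanes, controls on lane 4 and transgene libraries, and bars are the mean and SD. Pcdhgc5 lies at 173 to 283 CPM in the transgene libraries and at 17.3 to 88.1 CPM in the controls.

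Within the gamma C-type counts, Pcdhgc5 had the largest share in all 6 transgene libraries, and Pcdhgc3 in all 11 controls. Pcdhgc5 took 65.3% to 74.5% of them in the transgene libraries and 10.3% to 38.8% in the controls. Pcdhgc3 took 16.4% to 21.98% against 41.9% to 62.7%, and Pcdhgc4 9.17% to 16.1% against 19.2% to 40.8%. For all 3 shares the groups did not overlap, also within lane 4. The shares of a library sum to its whole, so a rise of Pcdhgc5 lowers the others. The ratio of Pcdhgc5 to Pcdhgc3 counts does not depend on library scaling and was 2.97 to 4.55 in transgene and 0.164 to 0.925 in control libraries, with control 3 the highest control. Among the controls, control 3 also had the highest summed telencephalic level, 574 CPM, and the lowest summed choroid plexus level, 130 CPM against 531 to 4439 CPM in the others. Transgenes 2 and 6 had the highest ratios of their group, 4.42 and 4.55, and the lowest choroid plexus sums, 95.1 and 71.8 CPM against 843 to 2090 CPM in the other transgene libraries. Other marker sums set the same libraries apart. Transgenes 2 and 6 had the highest striatal sums, 3126 and 2446 CPM against 1112 to 2159 CPM in the other transgene libraries. Control 3 had the lowest oligodendrocyte sum of the controls, 1699 CPM against 2576 to 6845 CPM. The part of choroid plexus or other tissue in these values was not tested.

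**Figure D2:**
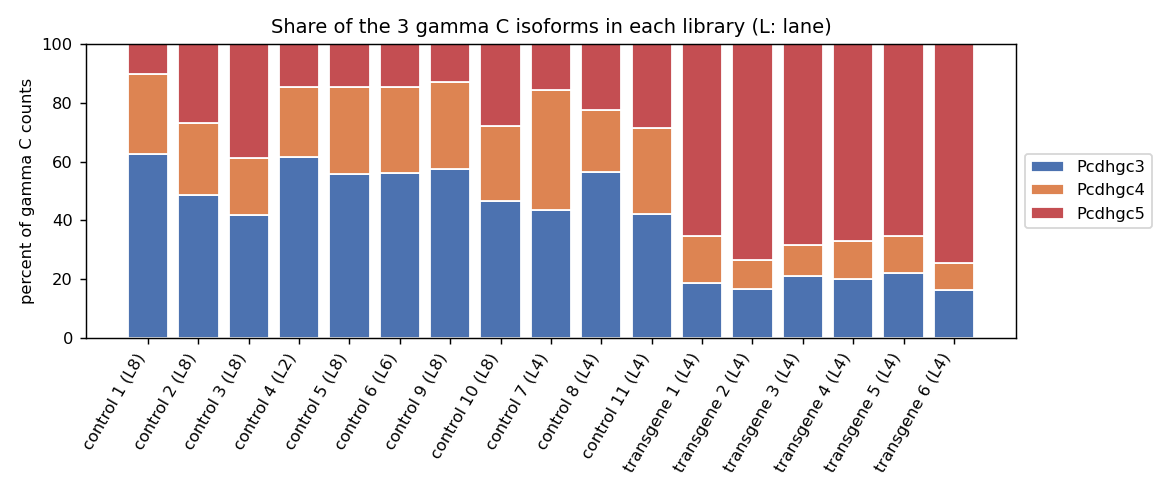
Share of Pcdhgc3, Pcdhgc4 and Pcdhgc5 in the gamma C-type counts of each library, in percent, with the lane in brackets. Pcdhgc5 takes 65.3% to 74.5% in the 6 transgene libraries and at most 38.8% in a control.

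Over all 57 members, 54 had enough counts to be tested, and the other 3 were Pcdha2, Pcdha6 and Pcdha11. Of the 54, 16 were higher and 4 lower in the transgene libraries, or 37.0% called, beside 47.4% of all 19136 features tested. Members called higher were 29.6%, beside 23% of all features, and members called lower were 7.41%, beside 24.4%. The median log2 fold change of the tested members was 0.17, against -0.05 over all features. The groups did not overlap for 3 members (Pcdha12, Pcdhga6 and Pcdhgc5), beside 14.9% of all features. Pcdhgc5 alone among the 54 changed at least 2-fold, beside 16.3% of all features, and 45 had a log2 fold change under 0.5 in size. Scaled by library size alone, 11 members were higher and 9 lower, 15 of these 20 being called with TMM as well, and the median over all features was -0.16. The shares of all features called with that scaling are not given here, so these counts do not set the members apart.

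Within lane 4, 8 of the 54 members were called (14.8%), all higher, beside 25.6% of 19261 features called in either direction and 13.6% called higher. The 8 called members were Pcdha5, Pcdha12, Pcdhb13, Pcdhga2, Pcdhga5, Pcdhga6, Pcdhga9 and Pcdhgc5. The lane 4 groups did not overlap for 7 members, which are these without Pcdhga5, beside 25.3% of features. Without control 7 and transgene 3, the libraries that stood apart in cerebellar genes, 4 members were called, 3 of them among these 8. Leaving out control 8 gave 13 calls and leaving out control 11 gave 5. The shares of all features called without these libraries are not given here, so these counts are not particular to the members. Between lane 8 and lane 4 controls, edgeR called 0 members and 0% of 19384 features, with 4 members and 1543 features at an unadjusted p under 0.05. DESeq2 called 1 feature and limma-voom 0 there, and neither called a member. Those lanes did not overlap for 2 members, beside 2.62% of features. Of the 54 members, 41 had a log2 fold change of lane 8 minus lane 4 above 0. The median of the 54 was 0.11, against 0.005 over all features. For transgene minus control over all libraries, 37 of the 54 were above 0.

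**Figure D3:**
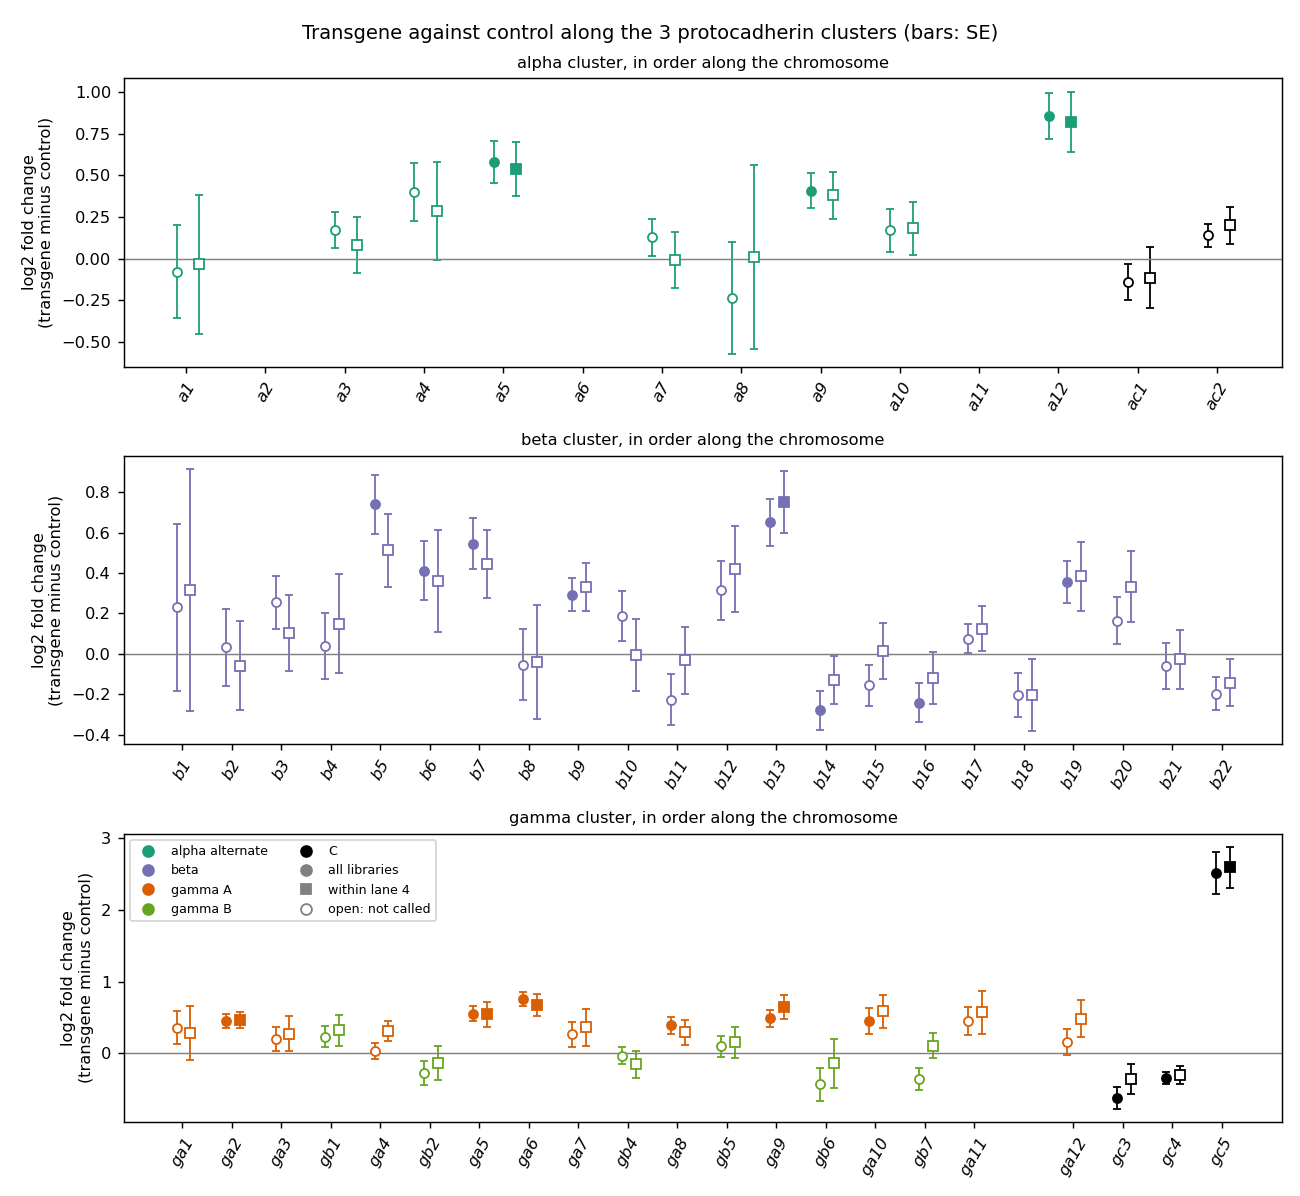
Log2 fold change of transgene minus control for each tested member, in its order along the alpha, beta and gamma arrays. Bars are the SE, circles the comparison over all libraries, squares that within lane 4, and filled symbols passed an adjusted p of 0.05. The y axes of the 3 panels differ, and Pcdhgc5 at the end of the gamma array lies at 2.52.

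Among the alternate isoforms of the alpha array, 3 of 9 tested genes rose and none fell (0 of 9; 2 rose and 0 fell within lane 4). The 33.3% that rose stood beside 23% of all features called higher, and the 22.2% within lane 4 beside 13.6%. Pcdha12, the last alternate gene before the C-type isoforms, had 17.1, 21.8, 21.5, 14.1, 15.7 and 19.7 CPM in transgene 1 to 6 and 6.44 to 12.6 CPM (median 9.16) in the controls. The groups did not overlap, and the log2 fold change was 0.85 ± 0.14 (edgeR adjusted p = 5.97e-05; 0.82 ± 0.18 within lane 4, adjusted p = 0.00769). Pcdha5 had 9.41 to 13.9 CPM (median 11.3) against 6.08 to 10.4 CPM (median 7.71), overlapping through controls 2 and 3. It rose by 0.58 ± 0.13 over all libraries (adjusted p = 0.000928) and by 0.54 ± 0.16 within lane 4 (adjusted p = 0.0335), where 6 of the 9 libraries, left out in turn, each ended the call. Pcdha9 had 12.7 to 15.9 CPM against 7.88 to 12.8 CPM and touched the controls only at control 4 and control 8, with a log2 fold change of 0.41 ± 0.11 (adjusted p = 0.00383). It was not called within lane 4 (0.38 ± 0.14, adjusted p = 0.0714). The other 6 tested alternate alpha genes had log2 fold changes from -0.23 to 0.40.

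In counts, the alpha array summed to 148 to 188 CPM in transgene libraries against 130 to 153 CPM in controls. Its alternate isoforms alone summed to 67.1 to 83.9 CPM against 49.1 to 64.7 CPM and did not overlap. Pcdhac2 alone took 48.6% to 56.0% of the alpha counts in transgene and 52.2% to 57.5% in control libraries. Pcdha12 took 9.53% to 11.8% against 4.94% to 8.53%, without overlap.

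The beta array, whose genes share no constant exons, moved in both directions. Over all libraries 6 of 22 beta genes rose and 2 fell (27.3% and 9.09%), beside 23% and 24.4% of all features. The median log2 fold change was 0.12, and 19 of the 22 stayed under 0.5 in size. Scaled by library size alone, 3 beta genes rose and 6 fell, with a median of 0.002. The shares of all features called with that scaling are not given here. Pcdhb9 was the most abundant, with 36.9 to 45.1 CPM (median 43.1) in transgene libraries against 28.1 to 39.1 CPM (median 36.6) in controls. Transgene 4, at 36.9 CPM, was the transgene library inside the control range, and the log2 fold change was 0.29 ± 0.08 (edgeR adjusted p = 0.00655).

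The 4 largest rises in the beta array were Pcdhb5, Pcdhb13, Pcdhb7 and Pcdhb6. Pcdhb13 had 14.3, 16.6, 16.5, 13.0, 16.4 and 18.9 CPM in transgene 1 to 6 and 7.72 to 13.5 CPM in the controls. Transgene 4 was below 1 control, control 9, and all other transgene libraries were above every control. Its log2 fold change was 0.65 ± 0.11 (edgeR adjusted p = 0.000134), and with 0.75 ± 0.15 (adjusted p = 0.00479) it was the beta gene called within lane 4. Pcdhb5 had 8.34 to 14.9 CPM against 5.48 to 10.1 CPM, with transgene 6 inside the control range. It rose by 0.74 ± 0.14 on the log2 scale (adjusted p = 0.000361) and was not called within lane 4 (0.51 ± 0.18, adjusted p = 0.0582). Pcdhb7 had 10.2 to 15.3 CPM against 6.61 to 12.1 CPM, overlapping through transgene 1, and a log2 fold change of 0.55 ± 0.13 (adjusted p = 0.00164). Pcdhb6 had 6.68 to 14.6 CPM against 5.47 to 8.31 CPM and a log2 fold change of 0.41 ± 0.15 (adjusted p = 0.0277), which without transgene 5 was 0.27 (adjusted p = 0.0871).

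Both falls of the beta array were small. Pcdhb14 had 18.8 to 26.8 CPM against 25.0 to 36.2 CPM, with controls 3, 7 and 11 (25.0, 25.5 and 25.9 CPM) below the highest transgene library, and a log2 fold change of -0.28 ± 0.10 (edgeR adjusted p = 0.0244). Pcdhb16 had 13.7 to 19.8 CPM against 18.8 to 27.1 CPM, and a log2 fold change of -0.24 ± 0.10 (adjusted p = 0.0462). Within lane 4 these values were -0.13 and -0.12, with adjusted p of 0.477 and 0.537. Leaving out single libraries ended the call of Pcdhb14 for 5 of 17 libraries (transgenes 1, 3, 4, 5 and 6; adjusted p up to 0.128) and that of Pcdhb16 for 12 of 17 (all 6 transgene libraries and controls 1, 3, 5, 7, 9 and 10; up to 0.220). The summed level of the beta array was 270 to 360 CPM in transgene libraries against 269 to 350 CPM in controls, nearly the same range.

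The alternate isoforms of the gamma array are described by class. All 12 gamma A genes had a log2 fold change above 0, with a median of 0.42, and 6 of them rose. That 50% stood beside 23% of all features called higher (33.3% beside 13.6% within lane 4). None of the 6 gamma B genes was called (0 of 6 by edgeR, DESeq2 and limma-voom, with 1, Pcdhgb7, at an unadjusted edgeR p under 0.05), and their median was -0.15. Within lane 4 all 12 gamma A genes were again above 0 and 4 rose, while 0 of 6 gamma B genes were called (0 by each of the 3 tools, and 0 at an unadjusted p under 0.05), with a median of -0.01. Both comparisons contain the same transgene libraries and lane 4 controls, so the second is not independent of the first. Scaled by library size alone, 11 of the 12 gamma A genes were above 0 over all libraries and 4 rose. With that scaling 1 gamma B gene, Pcdhgb7, was called lower, and the gamma B median was -0.27. Without control 7 and transgene 3, 5 gamma A genes rose and 3 gamma B genes (Pcdhgb2, Pcdhgb6 and Pcdhgb7) fell over all libraries, and 0 gamma A genes were called within lane 4. The shares of all features called with library size scaling, or without these libraries, are not given here.

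Pcdhga6 had the largest rise of the gamma A genes. It had 30.6, 42.9, 43.0, 31.8, 35.3 and 38.6 CPM in transgene 1 to 6 and 17.2 to 26.4 CPM (median 22.9) in the controls. The groups did not overlap, and the log2 fold change was 0.76 ± 0.10 (edgeR adjusted p = 4.70e-06; 0.67 ± 0.15 within lane 4, adjusted p = 0.00904). Without control 7 and transgene 3 the lane 4 value was 0.48 (adjusted p = 0.0544). Pcdhga5 had 14.7 to 23.7 CPM (median 18.6) against 10.1 to 15.1 CPM (median 13.3), overlapping through transgene 1. Its log2 fold change was 0.56 ± 0.11 (adjusted p = 0.000392), and within lane 4 0.54 ± 0.18 (adjusted p = 0.0472), a call that 8 of 9 libraries, left out in turn, each ended. Pcdhga9 had 21.7 to 29.6 CPM (median 26.1) against 12.3 to 23.3 CPM (median 20.1), overlapping through transgene 1 and control 2. It rose by 0.49 ± 0.12 (adjusted p = 0.00235) and within lane 4 by 0.65 ± 0.17 (adjusted p = 0.0179), but not without control 7 (0.48, adjusted p = 0.0550) or control 11 (0.63, adjusted p = 0.0601). The other 3 gamma A genes that rose over all libraries were Pcdhga2 (0.45 ± 0.10), Pcdhga8 (0.39 ± 0.11) and Pcdhga10 (0.45 ± 0.18), which the naming rule did not select and which were named after their values were seen. Pcdhga10 has no base of its own in the deposited rows. The antisense gene Gm26672 overlaps 2613 of its 4732 exon bases, and other deposited rows cover the rest. Its 2.05 CPM in controls and 2.80 CPM in transgene libraries are therefore uncertain.

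The ratio of summed gamma A to gamma B counts was 2.72 to 3.90 in transgene and 1.60 to 2.67 in control libraries, and the groups did not overlap. Control 7, at 2.67, was the highest control and close to transgene 5 at 2.72, and all other controls were at or below 2.10. Control 7 reached this ratio with low sums of both classes, 127 CPM for gamma A and 47.5 CPM for gamma B. The transgene libraries had gamma A sums of 229 to 290 CPM against 127 to 237 CPM in controls, and gamma B sums of 62.0 to 99.96 CPM against 47.5 to 127 CPM. The difference between the classes was not tested. Sums over members are a description here, and the comparison was chosen with earlier results of these data known.

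**Figure D4:**
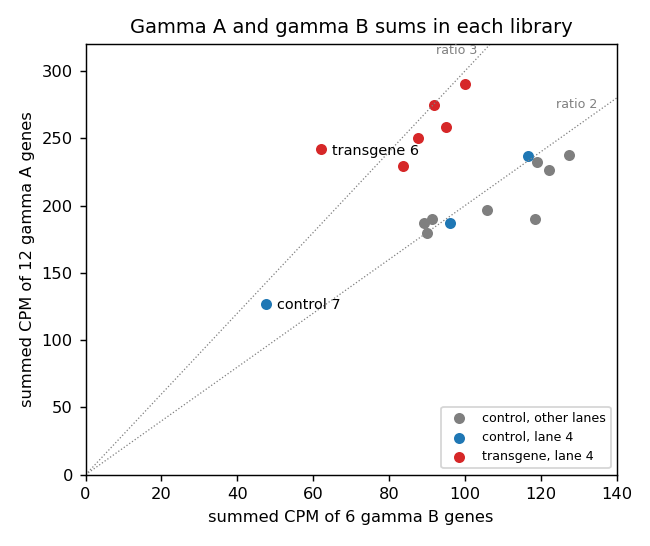
Summed level of the 12 gamma A genes against that of the 6 gamma B genes in each library, in TMM-scaled CPM on linear axes. Dotted lines mark ratios of 2 and 3. Transgene libraries lie at ratios of 2.72 to 3.90, and controls at 1.60 to 2.67, with control 7 at the lowest sums.

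The whole gamma array summed to 578 to 684 CPM in transgene libraries against 284 to 578 CPM in controls, with control 7 the lowest. Without Pcdhgc5 the sums were 401 to 480 CPM and 266 to 509 CPM, with means of 435 and 433 CPM. Pcdhgc5 took 28.8% to 41.4% of the gamma counts in transgene and 4.00% to 15.2% in control libraries. The effective number of isoforms is the exponential of the Shannon entropy of the counts. It equals the number of genes when all have equal counts. For the gamma array it was 9.78 to 13.0 in the transgene and 13.8 to 16.1 in the control libraries. For the alpha array it was 4.88 to 5.92 against 4.92 to 5.55, and for the beta array 18.1 to 19.3 against 17.7 to 18.8, with overlap in both. The counts were not divided by the bases a gene shares with no other row. Pcdha1, Pcdha2, Pcdha4, Pcdha6 and Pcdha11 have 101, 19, 3, 0 and 0 such bases, which limits the number for the alpha array.

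Position along an array showed no common gradient. Over all libraries, Spearman's rho between order from the 5′ end and log2 fold change was -0.04 over 11 alpha genes, -0.39 over 22 beta genes and -0.14 over 21 gamma genes. Within lane 4 these values were 0.15, -0.27 and -0.01. Without the C-type isoforms, rho over all libraries was 0.33 over 9 alpha genes and -0.09 over 18 gamma genes. Within lane 4 the values without C-type isoforms were 0.53 and 0.14. They are across genes that share libraries and, in the alpha and gamma arrays, exons, and describe these libraries without a test. The plot along the arrays shows that genes with opposite changes are neighbours, such as Pcdhb13 (0.65) and Pcdhb14 (-0.28), or Pcdhgc4 (-0.35) and Pcdhgc5 (2.52).

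How far a gene's count stands for its expression depends on the bases it shares with other deposited rows, since reads on shared bases were set aside as ambiguous (40.2% to 43.4% of the reads of a library). Of the 57 members, 49 had at least 1000 exon bases covered by no other row, 8 had fewer, and 3 of these (Pcdha6, Pcdha11 and Pcdhga10) had none. Every exon base was exclusive in 19 members, all in the beta array. Antisense genes overlapped 13 members. The strand setting of the counting is not given in the sources used here, so reads from such pairs cannot be told apart. Pcdhgc3 has 1055 exclusive bases and 1513 bases overlapped by the antisense gene BC037039, which had 1.503 ± 0.24 CPM in transgene libraries against 3.76 ± 1.11 CPM in controls. Pcdhgc5 has 2475 exclusive bases and no antisense overlap. Of the 39 members with 1 row, no antisense overlap and at least 1000 exclusive bases, 12 rose and 2 fell over all libraries. Within lane 4, 6 of them rose and 0 fell. Over all features, 23% were called higher and 24.4% lower, and within lane 4 13.6% and 12%.

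Levels can be set side by side only per length, here as CPM per 1000 exclusive bases in the 49 members that have them. In the controls the C-type isoforms had a median of 16.02, gamma A genes 8.99, gamma B genes 4.68, alternate alpha genes 3.29 and beta genes 3.18 CPM per exclusive kb. Pcdhgc3 was the highest member in the controls at 82.7 ± 19.8, followed by Pcdhac2 at 26.04 ± 1.8, and Pcdhgc4 (16.02 ± 1.2) and Pcdhgc5 (14.6 ± 8.8) did not differ beyond their spread. In the transgene libraries Pcdhgc5 was the highest at 83.7 ± 16.1, followed by Pcdhgc3 at 53.8 ± 5.8 and Pcdhac2 at 28.7 ± 3.2. The level of Pcdhgc3 was divided by 1055 bases, leaving out its 1513 bases of antisense overlap. If reads were counted by strand, its level per kb would be lower in both groups, so its rank is uncertain. Between control libraries the coefficient of variation of the level was 60.1% for Pcdhgc5, with 3.73% given by counting error alone, and 6.98% for Pcdhac2. Its median over the C-type isoforms was 7.94% (range 6.98% to 60.1%), against medians of 16.6% to 22.3% in the other classes. Counting error alone gave medians of 3.34% for the C-type isoforms and 4.86% to 8.00% for the other classes. Between transgene libraries the C-type median was 14.3%, inside the 12.5% to 18.4% of the other classes.

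**Figure D5:**
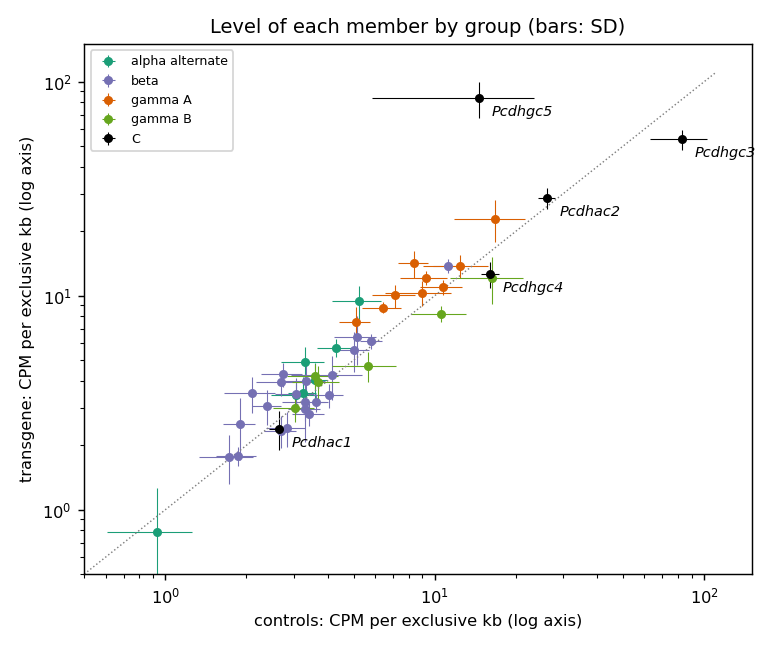
Mean level of each of the 49 members with at least 1000 exclusive bases in transgene against control libraries, in CPM per exclusive kb on log axes, with bars of 1 SD. The dotted line marks equal levels. Pcdhgc5 lies above the line at 14.6 in controls and 83.7 in transgene libraries, and Pcdhgc3 below it at 82.7 and 53.8.

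Other genes inside or between the arrays were lower or not called. Of 21 such genes 9 were tested, and 0 rose and 3 fell over all libraries, beside 23% and 24.4% of all features. These 3 were named after their values were seen. Taf7, which encodes a subunit of the general transcription factor TFIID, had 10.96 ± 1.3 CPM in transgene libraries against 19.3 ± 2.7 CPM in controls, a log2 fold change of -0.82 ± 0.11 (edgeR adjusted p = 6.35e-06; within lane 4 -0.80 ± 0.15, adjusted p = 0.00294). The noncoding 3222401L13Rik fell by 1.26 ± 0.13 on the log2 scale (adjusted p = 7.82e-07; within lane 4 adjusted p = 0.00336). BC037039 had a log2 fold change of -1.32 ± 0.22 (adjusted p = 9.45e-05) and was not called within lane 4 (-0.82 ± 0.29, adjusted p = 0.0644).

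Genes for proteins that set protocadherin promoter choice were called about as often as all features. Of 17 tested, 1 rose and 7 fell over all libraries, beside 47.4% of all features called in either direction, with a median log2 fold change of -0.10 against -0.05 over all features. Within lane 4 the median was 0.04 against -0.04 over all features, and edgeR called 0 of 17, with 4 at an unadjusted p under 0.05. There limma-voom called 0 of 17 and DESeq2 1 of 19, which was lower. The cohesin subunit gene Smc1a had a log2 fold change of -0.29 ± 0.05 (edgeR adjusted p = 0.000263), the cohesin gene Stag1 of -0.48 ± 0.11 (adjusted p = 0.00205), the cohesin loader gene Nipbl of -0.33 ± 0.08 (adjusted p = 0.00336) and Stag2 of -0.44 ± 0.11 (adjusted p = 0.00395). The gene for the insulator protein CTCF, Ctcf, had 118 ± 6 CPM in transgene libraries against 134 ± 19 CPM in controls and was not called (-0.17 ± 0.09, adjusted p = 0.130). The DNA methyltransferase gene Dnmt3b, which methylates alternate promoters in the mouse embryo, and the histone methyltransferase gene Setdb1 had too few counts to be tested.

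Genes of signalling that acts downstream of protocadherins were higher more often than lower. Of 21 tested, 10 rose and 2 fell over all libraries, beside 23% of all features called higher and 24.4% called lower. The median log2 fold change was 0.08. Within lane 4, 8 rose and 2 fell, beside 13.6% and 12% of all features. The WAVE complex, which binds some protocadherin tails and drives actin branching, gave the largest rise with Wasf1, at 32.7 ± 5.3 against 10.2 ± 2.5 CPM (1.67 ± 0.15, edgeR adjusted p = 1.49e-07). Its subunit gene Brk1 rose by 0.82 ± 0.08 (adjusted p = 4.64e-07), Marcks, a kinase substrate that binds actin, by 0.85 ± 0.09 (adjusted p = 1.06e-06) and the focal adhesion kinase gene Ptk2 by 0.90 ± 0.12 (adjusted p = 8.64e-06). All 4 also rose within lane 4 (adjusted p from 0.000124 to 0.00273). The related Wasf2 fell by 0.28 ± 0.06 (adjusted p = 0.00106; within lane 4 adjusted p = 0.0266), and Wasf3, with 300.0 ± 17.1 against 295.6 ± 23.1 CPM, was not called (0.02 ± 0.06, adjusted p = 0.795). Both were named after their values were seen. Axin1 was not called, with 11.1 ± 0.6 CPM in transgene libraries against 12.02 ± 1.3 CPM in controls.

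Protocadherin genes outside the arrays were also higher. Of 9 tested non-clustered protocadherin genes, 8 rose and 1 fell, with a median log2 fold change of 1.11. Within lane 4, 5 of 8 rose and 0 fell. Over all features, 23% were called higher and 24.4% lower, and within lane 4 13.6% and 12%. Pcdh1 had 372 ± 29 CPM in transgene and 143 ± 39 CPM in controls, a log2 fold change of 1.38 ± 0.15 (edgeR adjusted p = 8.87e-07). Pcdh8 rose by 2.10 ± 0.24 (adjusted p = 1.84e-06), Pcdh20 by 1.11 ± 0.15 (adjusted p = 1.13e-05) and Pcdh10 by 1.27 ± 0.19 (adjusted p = 2.19e-05). Of 12 tested genes of other large cadherins, 7 rose and 3 fell (4 rose and 1 fell within lane 4). Among these, Celsr1, a planar polarity gene, rose by 1.68 ± 0.22 (adjusted p = 7.00e-06), Clstn1, a calsyntenin gene, by 0.57 ± 0.08 (adjusted p = 9.82e-06) and Celsr2 by 0.52 ± 0.09 (adjusted p = 0.000101). Fat1 had a log2 fold change of -1.68 ± 0.28 (adjusted p = 8.18e-05). Fat2, which is also on the granule cell list and was named after its values were seen, had the largest change of this list, with 0.229 ± 0.560 CPM in transgene libraries against 6.95 ± 2.69 CPM in controls (adjusted p = 0.000122). The rises and falls of these lists stood beside the marker differences given above, and their relation was not tested.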

How the data were processed

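The authors deposited raw counts for 17 brain libraries, with 68517 rows each: 64505 Ensembl transcripts, 4007 assembled loci and 5 closing rows, left out of totals and tests. The build was mm10, per the submitters' processing notes, with the aligner, counter and strand setting not given in the sources used here. Transcripts were matched to GENCODE M21 (64380 rows matched, 125 did not) and summed to genes, giving 45147 features. M21 gives the symbol Pcdha11 to a pair of genes, of which the first is Pcdha10 in RefSeq. Genes were tested with edgeR 4.0.16 in R 4.3.3 (quasi-likelihood F test, TMM scaling, default expression filter), with Benjamini-Hochberg adjustment over all features and a threshold of 0.05, checked on simulated counts. Alternatives used DESeq2 1.42.0, limma 3.58.1, other scalings, filters and libraries. Named members were all C-type isoforms and, per array, up to 4 called rises, up to 4 called falls and the most abundant gene; others were named with their values known. Members, lists and tests were chosen with earlier results of these data known.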

Additional observations from a re-analysis of the deposited data

Results flagged for a closer look

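For 25 values the transgene libraries were examined for a library far from the others, a check that chance passes in about 1 in 20 groups, and 3 were picked out. Pcdhb7 was 10.2 CPM in transgene 1, and the library nearest to it had 13.6 CPM. Pcdhb14 was 18.8 CPM in transgene 6, with the next at 24.1 CPM. The ratio of gamma A to gamma B counts was 3.90 in transgene 6, with the next at 2.99.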

How the results depend on the processing

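No paired analysis was possible because the labels give no replicate numbers that groups share. Over all libraries, 20 members were called, 18 to 24 when each library was left out in turn, and 10 (all higher) with a term for lane and flow cell, which leaves lane 4 as the lane with both groups. Within lane 4, 8 were called, 4 at an adjusted p under 0.01, 4 without control 7 and transgene 3, and 5 to 13 when each library was left out. The shares of all features called under these alternatives are not given here. The counts therefore show only how the calls of the members moved. Of log2 fold changes of the 18 named members under the other alternatives, 274 kept their side of the threshold, 29 lost and 3 gained it, and none changed sign as a called value (0). Summed levels, isoform shares and medians of the arrays moved by less than the spread between libraries. The lane 4 comparison rests on 3 controls, and the 8 controls of other lanes share no lane with a transgene library. Pcdha2, Pcdha6 and Pcdha11 had too few counts to be tested and have 19, 0 and 0 exclusive bases. Of the 8 members with under 1000 exclusive bases the other 5 were tested.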

Other observations

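Among the 11 controls, the levels of the 5 C-type isoforms were set against summed levels of 4 regional marker lists, 20 relations in all, chosen with earlier results of these data known. Pcdhgc3 followed the granule cell sum with Pearson's r = 0.87 (permutation p = 0.00016, adjusted 0.0032) and Spearman's rho = 0.84 (permutation p = 0.00225, adjusted 0.0450). Without controls 7 and 11, the farthest from the median sum, r was 0.73, and within the 6 controls of lane 8 it was 0.70. Pcdhgc3 also had r = 0.86 with the telencephalic sum (permutation p = 0.00122, adjusted 0.0122; rho = 0.79, permutation p = 0.00510, adjusted 0.0510), r = 0.75 without controls 3 and 7, and r = 0.31 within lane 8, where the relation is not seen at that strength. Pcdhgc5 had r = 0.64 with the telencephalic sum (permutation p = 0.0277) and rho = 0.75 (permutation p = 0.0103), which fail the correction at adjusted 0.165 and 0.0689. Without controls 3 and 7 that r was 0.51, and within lane 8 it was 0.91. Pcdhgc4 had r of at most 0.25 with any of the 4 sums.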
